A study of Homo sapiens with 24 samples.

Results

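The nuclear genes for mitochondrial ribosomal proteins were followed through 12 treatment groups. They were taken as every row of the deposited expression table whose symbol is MRPL or MRPS followed by digits and an optional letter. This gave 76 members of 30373 rows, 47 MRPL genes for the large ribosomal subunit and 29 MRPS genes. 5 further rows with such a beginning were left out, namely MRPL42P5, MRPL45P2 and MRPS31P5, the antisense row MRPL23-AS1 and the read-through row URGCP-MRPS24, whose reads overlap MRPS24. RNA came from 3 acute myeloid leukaemia lines, SKM-1, MV-4-11 (an MLL fusion line) and Kasumi-1 (a RUNX1-RUNX1T1 fusion line), and from NCI-H1299, a non-small cell lung cancer line that lacks p53. Each line was exposed for 24 h to ABBV-075 at 100 nM, an inhibitor of both bromodomains of the BET proteins, to ABBV-744 at 200 nM, which is selective for the second bromodomain, or to the solvent DMSO, with 2 libraries in each group. All 4 lines are long-cultured lines, and nothing in the labels gives an added transgene or knockout. The doses of the compounds differ, so any value for ABBV-744 beside one for ABBV-075 holds at those doses. The series asks how selective inhibition of the second bromodomain compares with inhibition of both.

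Mitochondria translate their own few messages, all for respiratory chain proteins, on a ribosome of their own. Its RNAs come from the mitochondrial genome, while all its proteins are encoded in the nucleus, made in the cytosol and imported. Part of these proteins descend from bacterial ribosomal proteins and part arose only in mitochondria, and the nuclear-encoded chain subunits have to be matched by mitochondrially made ones. MYC is known as an activator of many nuclear genes for mitochondrial proteins, and BET inhibitors are known to lower MYC in many leukaemia lines. MRPS36 carries an MRPS name but is a subunit of the 2-oxoglutarate dehydrogenase complex, and MRPS30 and MRPS18A, despite their names, sit in the large subunit.

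The RefSeq promoter table for GRCh38.p14 held windows for 67 of the 76 members, 83 windows in all because a few genes have several starts. Each window runs from 250 bases before to 50 bases after the transcription start. The ETS core CCGGAAG, bound by GABP and other ETS factors, was found on either strand in 32 member windows, 38.6%, against 10.3% of all 35116 windows and 16.1% of the 14939 windows of genes reaching 1 FPKM in at least 2 libraries. The YY1 core AAGATGGC was in 27.7% of member windows, against 2.89% of all windows and 4.62% of those of expressed genes. With the 250 bases before the start alone, the YY1 share was 8.43%, against 1.36% of all windows. The E-box CACGTG, which MYC and other factors bind, was in 10.8% of member windows, against 7.26% of all and 9.29% of those of expressed genes. The NRF1 motif, GCGCA and GCGC separated by 1 base of any kind, was also in 10.8%, against 5.78% of all and 9.53% of those of expressed genes. Matches of different motifs shared no bases in any member window. The 150 bases before the start are printed for 8 members that the results below return to. The first 6 were called lower with ABBV-075 in every line and the last 2 were called higher in 3 lines. Capitals mark CCGGAAG or its reverse complement CTTCCGG, the letters run 5′ to 3′ on the gene's strand, and a match describes letters only.
MRPL3, chr3:131502972-131503121, minus strand: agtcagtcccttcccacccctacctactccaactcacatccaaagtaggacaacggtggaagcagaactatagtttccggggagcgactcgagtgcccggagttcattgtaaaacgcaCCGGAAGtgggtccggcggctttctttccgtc
MRPS23, chr17:57850045-57850194, minus strand: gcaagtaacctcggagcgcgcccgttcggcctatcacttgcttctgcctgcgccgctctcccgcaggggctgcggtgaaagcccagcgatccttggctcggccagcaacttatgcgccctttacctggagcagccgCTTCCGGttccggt
MRPS34, chr16:1773135-1773284, minus strand: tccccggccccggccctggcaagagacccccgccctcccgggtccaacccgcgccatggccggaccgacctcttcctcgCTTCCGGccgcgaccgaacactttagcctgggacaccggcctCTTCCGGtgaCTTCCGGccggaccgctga
MRPL11, chr11:66438849-66438998, minus strand: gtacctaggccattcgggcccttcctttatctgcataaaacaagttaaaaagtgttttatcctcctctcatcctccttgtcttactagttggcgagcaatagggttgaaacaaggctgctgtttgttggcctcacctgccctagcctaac
MRPL24, chr1:156741089-156741238, minus strand: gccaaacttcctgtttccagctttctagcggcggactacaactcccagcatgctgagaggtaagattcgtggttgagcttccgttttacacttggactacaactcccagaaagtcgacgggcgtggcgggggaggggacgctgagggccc
MRPL12, chr17:81703217-81703366, plus strand: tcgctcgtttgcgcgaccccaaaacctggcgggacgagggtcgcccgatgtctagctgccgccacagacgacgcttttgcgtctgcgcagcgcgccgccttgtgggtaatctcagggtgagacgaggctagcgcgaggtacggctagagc
MRPS6, chr21:34073428-34073577, plus strand: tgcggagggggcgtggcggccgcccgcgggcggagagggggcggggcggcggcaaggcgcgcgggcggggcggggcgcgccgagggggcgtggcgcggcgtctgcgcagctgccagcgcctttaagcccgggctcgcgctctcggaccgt
MRPS14, chr1:175023426-175023575, minus strand: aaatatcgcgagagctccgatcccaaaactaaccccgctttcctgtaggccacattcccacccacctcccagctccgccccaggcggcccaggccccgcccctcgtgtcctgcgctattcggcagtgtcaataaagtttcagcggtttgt
MRPL3 and MRPS23 each held 1 ETS core in this stretch and MRPS34 held 3, while the other 5 held none of the 4 motifs.

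All values are FPKM, that is fragments per kilobase of transcript scaled to all fragments of the library, and the depth behind them is unknown. FPKM summed to between 543426 and 719215 per library, and 11243 to 12624 genes reached 1 FPKM. Libraries of a group correlated across genes with r between 0.953 and 0.996, and no pair was identical. The SKM-1 DMSO libraries stood apart. The log2 difference of the members between those 2 libraries had an SD of 0.602, against 0.516 between the Kasumi-1 ABBV-075 libraries and 0.122 to 0.277 in the other groups. Mitochondrially encoded genes took 9.13% of FPKM in SKM-1 DMSO replicate 1 and 22.3% in replicate 2, outside the 6.65% to 16.3% of the other libraries at the upper end, so the SKM-1 counts, and the values that moved most without one of these libraries, are also given without it. Leukocyte and myeloid markers summed to 473 to 1642 FPKM in SKM-1, 795 to 1950 in MV-4-11 and 75.6 to 293 in Kasumi-1, with all 5 detected, and to 2.77 to 3.91 in NCI-H1299. The 4 epithelial markers summed to 518 to 1358 FPKM in NCI-H1299, where only KRT8 and KRT18 reached 1 FPKM, and to at most 71.1 in any leukaemia library. EPCAM went the other way, with 70.7 and 62.2 FPKM in Kasumi-1 DMSO libraries and at most 0.206 in NCI-H1299. CDH1 was at most 0.114 FPKM in any library. The 3 mesenchymal markers summed to 1555 to 1693 FPKM in NCI-H1299, 290 to 377 in MV-4-11, 22.5 to 124 in SKM-1 and 0.772 to 2.22 in Kasumi-1. VIM made up nearly all of each sum, with 1538 to 1666 FPKM in NCI-H1299. CALD1 reached 1 FPKM in NCI-H1299 only. COL5A1 went the other way, with at most 0.0265 FPKM in NCI-H1299 and 0.121 to 0.226 in MV-4-11. Erythroid markers summed to at most 0.422 FPKM in all lines and lymphoid markers to at most 1.31 FPKM.

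As a share of all FPKM, the 76 members together were lower with ABBV-075 than with DMSO in every line. In SKM-1 they took 0.446% and 0.432% with ABBV-075 and 0.585% and 0.578% with ABBV-744, against 0.675% and 0.515% with DMSO. The MV-4-11 shares were 0.463% and 0.460% with ABBV-075 and 0.541% and 0.524% with ABBV-744, against 0.631% and 0.623% with DMSO. In Kasumi-1 they were 0.295% and 0.284% with ABBV-075 and 0.380% and 0.369% with ABBV-744, against 0.493% and 0.486% with DMSO. NCI-H1299 libraries gave 0.564% and 0.568% with ABBV-075 and 0.779% and 0.756% with ABBV-744, against 0.851% and 0.821% with DMSO. The ABBV-075 libraries lay below both other groups of the same line in all 4 lines, and the ABBV-744 libraries lay between ABBV-075 and DMSO in all lines but SKM-1, where they fell within the range of the DMSO pair. With mitochondrially encoded genes left out of the total, the SKM-1 DMSO shares were 0.743% and 0.662%. An exact permutation test of 2 against 2 libraries cannot go below p = 0.333, so the test used below is limma's across all genes. In bulk RNA, fewer cells with a transcript and less of it per cell cannot be told apart.

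**Figure D1:**
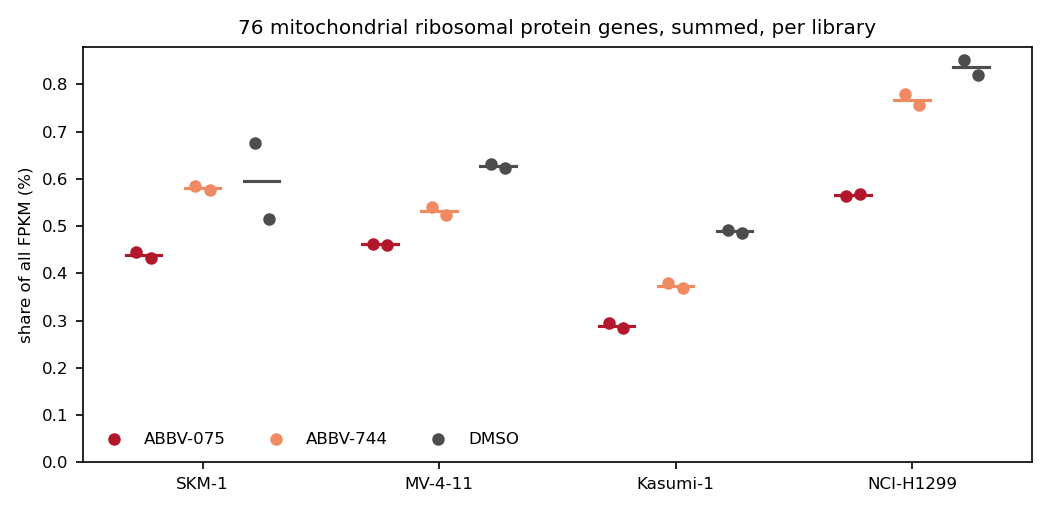
Share of all FPKM (%, vertical axis from 0) taken by the 76 mitochondrial ribosomal protein genes in each library, by line and treatment; each point is 1 library and each bar the mean of the 2. The ABBV-075 libraries are the lowest of each line, down to 0.284% in Kasumi-1, and the SKM-1 DMSO libraries are the farthest apart, at 0.675% and 0.515%.

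With ABBV-075 most members had a log2 difference below 0 in every line, 59 of 76 in SKM-1, 67 in MV-4-11, 68 in Kasumi-1 and 67 in NCI-H1299. Differences below are on the log2(FPKM + 1) scale, a gene is called at a Benjamini-Hochberg adjusted p under 0.05 in limma over all genes tested, and all 76 members passed the filter of 1 FPKM in every comparison. In SKM-1, 38 members were called lower and 7 higher, where 29.2% of all genes tested were called lower and 32% higher. The MV-4-11 counts were 34 lower and 2 higher, beside 22.1% lower and 20.3% higher of all genes. In Kasumi-1, 56 were lower and 3 higher, beside 32.6% and 24.7%. NCI-H1299 had 45 lower and 1 higher, beside 26.5% and 20.6%. Over the mean of the 3 leukaemia lines 58 were lower and 5 higher, beside 34.4% and 33.5%. The share of members called lower was above the share of all genes in each line, and the share called higher was below it. The median log2 difference of the members was -0.48 in SKM-1, -0.43 in MV-4-11, -0.80 in Kasumi-1 and -0.56 in NCI-H1299, while that of all genes was 0.05, -0.01, -0.09 and -0.06 in the same order of lines. A fall of at least 2-fold was measured for 16, 10, 24 and 16 members in that order, which is 21.1%, 13.2%, 31.6% and 21.1% of them, where 13.8%, 7.76%, 14.6% and 7.81% of all genes fell so far. In SKM-1 it was 16 members without DMSO replicate 1 and 23 without DMSO replicate 2.

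In SKM-1 these numbers moved with single libraries. Without DMSO replicate 1 the median was -0.20, 27 members were called lower and 13 higher, where 29.6% of all genes were called lower and 36.2% higher. The 11 that lost their lower call then were MRPL2, MRPL16, MRPL27, MRPL32, MRPL34, MRPL37, MRPL50, MRPL51, MRPS2, MRPS15 and MRPS18C. Without DMSO replicate 2 the median was -0.74, 45 were called lower and 1 higher, which was MRPS6, where 30.5% of all genes were called lower and 29.2% higher, and MRPL51 alone of the 38 lost its call. Without either ABBV-075 library 3 were called higher, while between 27 and 45 members were called lower whichever of the 24 libraries was left out. The MV-4-11 count of 2 higher became 1 without any of the line's own 6 libraries, either SKM-1 ABBV-075 library or any ABBV-744 library, and 4 without either SKM-1 DMSO library, where libraries of other lines enter the MV-4-11 values only through the shared estimate of spread. In NCI-H1299 the 1 member called higher was lost without ABBV-075 replicate 2 or either DMSO library, and the count was 2 without either SKM-1 DMSO library. The leukaemia median was -0.67 without SKM-1 DMSO replicate 2, against -0.55 with all libraries.

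**Figure D2:**
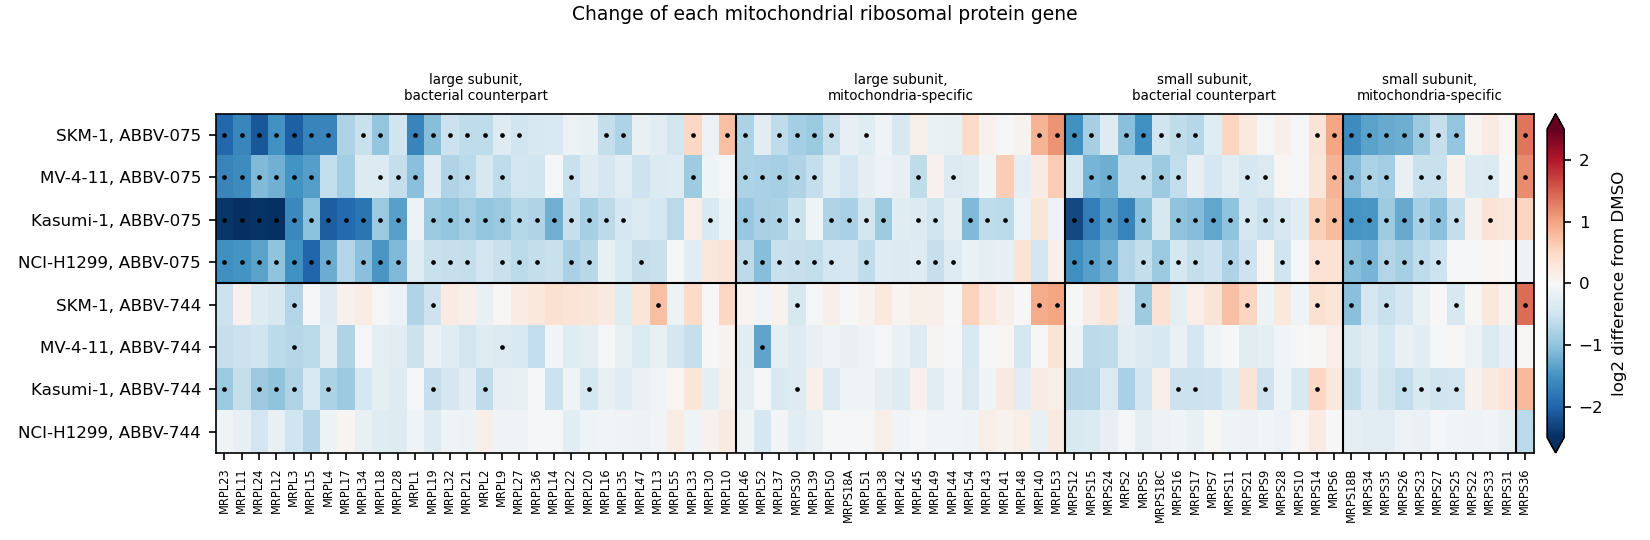
Log2 difference from DMSO (colour, log2(FPKM + 1) scale, blue lower and red higher) of each of the 76 members (columns, grouped by subunit and by whether a bacterial counterpart exists, MRPS36 alone at the right) for each line and compound (rows); a dot marks an adjusted p under 0.05. The ABBV-075 rows are mostly blue, with 56 dots for lower members in Kasumi-1, and the NCI-H1299 ABBV-744 row has no dot.

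21 members were called lower with ABBV-075 in all 4 lines, 17 in 3 lines, 13 in 2, 12 in 1 and 13 in none. The 21 are 27.6% of the members, beside 7.75% of the 10180 genes tested in all lines, and 50% of the members were lower in at least 3 lines, beside 16.6% of those genes. The 21 were MRPL3, MRPL9, MRPL11, MRPL12, MRPL15, MRPL18, MRPL21, MRPL23, MRPL24, MRPL32, MRPL37 and MRPL46 of the large-subunit names and MRPS5, MRPS15, MRPS16, MRPS18B, MRPS23, MRPS27, MRPS30, MRPS34 and MRPS35 of the small-subunit names. Leaving out 1 library, an alternative added for this count after seeing the data, between 17 and 31 members were lower in all 4 lines. Without SKM-1 DMSO replicate 1 the number was 20, of which 18 were among the 21, with MRPL32, MRPL37 and MRPS15 lost. The SKM-1 difference was -0.04 for MRPS15 and -0.09 for MRPL37 then, against -0.83 and -0.64 with all libraries. Without SKM-1 DMSO replicate 2 all 21 remained and 10 were added. MRPL37 lost its place when any of 21 of the 24 libraries was left out and MRPS5 for 16 of them, while 13 of the 21 members kept theirs throughout. 54 members, 71.1%, were below 0 in all 4 lines, beside 24.8% of all genes, and 2 were above 0 in all 4. The 54 became 44 without SKM-1 DMSO replicate 1. The 7 members called in no line, in either direction, were MRPL13, MRPL42, MRPL48, MRPL55, MRPS10, MRPS22 and MRPS31. The lines have libraries of their own, but share one estimate of spread in the fit.

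Among large-subunit proteins with a bacterial counterpart, 30 members, 18 were lower in SKM-1, 14 in MV-4-11, 24 in Kasumi-1 and 19 in NCI-H1299, and 2, 0, 0 and 0 were higher. The 30 had shares lower of 60%, 46.7%, 80% and 63.3%, beside 29.2%, 22.1%, 32.6% and 26.5% of all genes. Their medians were -0.57, -0.53, -0.92 and -0.59 in that order of lines. MRPL3, which lies close to the peptidyl transferase centre, had 22.9 and 26.8 FPKM with ABBV-075 and 68.4 and 57.6 FPKM with ABBV-744, against 109 and 102 FPKM with DMSO in SKM-1. In MV-4-11 it had 34.1 and 33.2 FPKM with ABBV-075 and 62 and 55.5 FPKM with ABBV-744, against 107 and 87.3 FPKM with DMSO. The groups did not overlap in either line, with ABBV-744 between the others. Kasumi-1 had 29.6 and 37.3 FPKM with ABBV-075 and 59.3 and 63.1 FPKM with ABBV-744, against 94.7 and 115 FPKM with DMSO for the same gene, and NCI-H1299 had 39.5 and 38 FPKM with ABBV-075 and 84.2 and 74.5 FPKM with ABBV-744, against 112 and 111 FPKM with DMSO. Again no group overlapped another. Such separation is common. Of all genes tested, 32.4% in SKM-1, 39.5% in MV-4-11, 40.1% in Kasumi-1 and 46.6% in NCI-H1299 had both ABBV-075 libraries below both DMSO libraries. In the same order 35.9%, 38.3%, 32.5% and 39.2% had both above. Of the 76 members 42, 58, 61 and 61 lay below and 9, 6, 5 and 6 above. Separation alone therefore sets no gene apart. The log2 difference of MRPL3 with ABBV-075 was -2.05 ± 0.14 (SE, adjusted p = 7.99e-09) in SKM-1, -1.50 ± 0.14 (adjusted p = 5.85e-07) in MV-4-11, -1.62 ± 0.14 (adjusted p = 1.54e-07) in Kasumi-1 and -1.50 ± 0.14 (adjusted p = 5.30e-07) in NCI-H1299.

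The stalk, formed by MRPL12 on the base of MRPL10 and MRPL11, is where translation factors are recruited, and MRPL12 is also reported to bind the mitochondrial RNA polymerase. MRPL12 had 11.3 and 6.41 FPKM with ABBV-075 and 39.2 and 44.3 FPKM with ABBV-744, against 98.3 and 72.8 FPKM with DMSO in Kasumi-1. This was the largest fall among the 76 members in any line, at -3.17 ± 0.21 (adjusted p = 8.17e-09), with no overlap between the 3 groups. In SKM-1 the gene had 23.6 and 19.8 FPKM with ABBV-075 and 41.2 and 56 FPKM with ABBV-744, against 71.7 and 57 FPKM with DMSO, in which the ABBV-075 libraries lay below all others and the ABBV-744 libraries lay just below the DMSO libraries. MV-4-11 had 32.6 and 30.7 FPKM with ABBV-075 and 48.7 and 45.2 FPKM with ABBV-744, against 69.8 and 78.8 FPKM with DMSO. NCI-H1299 had 42.1 and 41.9 FPKM with ABBV-075 and 77.9 and 72.7 FPKM with ABBV-744, against 94.4 and 77.3 FPKM with DMSO, with the ABBV-744 and DMSO libraries overlapping. The differences with ABBV-075 were -1.52 ± 0.21 (adjusted p = 1.69e-05) in SKM-1, -1.20 ± 0.21 (adjusted p = 0.000307) in MV-4-11 and -1.01 ± 0.21 (adjusted p = 0.00121) in NCI-H1299. MRPL11 had 19.6 and 6.60 FPKM with ABBV-075, against 75.4 and 71.9 FPKM with DMSO in Kasumi-1. It had 27.7 and 31 FPKM with ABBV-075, against 89.8 and 79.5 FPKM with DMSO in NCI-H1299. Its differences were -1.62 ± 0.30 in SKM-1, -1.58 in MV-4-11, -2.58 in Kasumi-1 and -1.50 in NCI-H1299, all called lower. MRPL10 was called higher in SKM-1 at 0.76 ± 0.22 (adjusted p = 0.00738), where it had 66.1 and 52.7 FPKM with ABBV-075, against 44.6 and 26.5 FPKM with DMSO, and was called in no other line. Its SKM-1 difference was 0.40 without DMSO replicate 2 and 0.60 without ABBV-075 replicate 1, neither called, and 1.13 without DMSO replicate 1.

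At the exit of the peptide tunnel (MRPL22, MRPL23, MRPL24, MRPL44, MRPL45 and MRPL47) 2 of 6 members were lower in SKM-1, 5 in MV-4-11, 4 in Kasumi-1 and 6 in NCI-H1299, with none higher. The SKM-1 share, 33.3%, was near the 29.2% of all genes, and the others were 83.3%, 66.7% and 100%, beside 22.1%, 32.6% and 26.5%. MRPL24 had 17.6 and 18.2 FPKM with ABBV-075, against 116 and 56.6 FPKM with DMSO in SKM-1, where the DMSO libraries lay far apart and both above the ABBV-075 libraries. The gene had 31 and 29.6 FPKM with ABBV-075, against 63.6 and 69.8 FPKM with DMSO in MV-4-11. In Kasumi-1 it had 8.96 and 5.47 FPKM with ABBV-075, against 43.1 and 42.2 FPKM with DMSO, with the lowest levels of the 4 lines. It had 24 and 23.6 FPKM with ABBV-075, against 60.3 and 62.5 FPKM with DMSO in NCI-H1299. The differences were -2.12 ± 0.23 (adjusted p = 1.25e-06), -1.11, -2.44 and -1.33 in that order of lines, all called lower. MRPL23 had 16.6 and 13.6 FPKM with ABBV-075, against 77.6 and 48.6 FPKM with DMSO in SKM-1. It had 14.1 and 17 FPKM with ABBV-075, against 49.9 and 51.4 FPKM with DMSO in MV-4-11. In Kasumi-1 it had 20.6 and 13.9 FPKM with ABBV-075, against 98.9 and 92.5 FPKM with DMSO, and in NCI-H1299 12.9 and 10.1 FPKM with ABBV-075, against 35.5 and 34.8 FPKM with DMSO, so the groups did not overlap in any line. MRPL23 fell by the largest mean amount over the 4 lines, with differences of -1.96 ± 0.20 (adjusted p = 5.01e-07), -1.65, -2.43 and -1.54. MRPL15, an RNA-binding protein of the large-subunit core, had 21.6 and 26.7 FPKM with ABBV-075, against 100.2 and 95.8 FPKM with DMSO in NCI-H1299, the largest fall of that line at -1.98 ± 0.21 (adjusted p = 1.80e-06). It was also lower in SKM-1 at -1.66, in MV-4-11 at -1.37 and in Kasumi-1 at -1.02.

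The 19 mitochondria-specific proteins of the large subunit had smaller medians than the 30 with a bacterial counterpart, -0.18, -0.30, -0.54 and -0.42 in SKM-1, MV-4-11, Kasumi-1 and NCI-H1299. The difference between these lists was not tested. Of the 19, 6, 7, 13 and 10 were called lower in that order and 2, 0, 0 and 0 higher. The shares lower were 31.6%, 36.8%, 68.4% and 52.6%, beside 29.2%, 22.1%, 32.6% and 26.5% of all genes. In SKM-1 the share was near that of all genes. In the central protuberance (MRPL18, MRPL27, MRPL38, MRPL40, MRPL46, MRPL48 and MRPL55), 3, 2, 4 and 3 of 7 were lower, or 42.9%, 28.6%, 57.1% and 42.9%, and 1, 0, 0 and 0 higher. MRPL18, a protein of that structure, had 46.2 and 48.1 FPKM with ABBV-075, against 131 and 129 FPKM with DMSO in NCI-H1299. It had 70.2 and 62.4 FPKM with ABBV-075, against 81 and 87.4 FPKM with DMSO in MV-4-11. The groups did not overlap in either line, but the gap was far wider in NCI-H1299. The difference was -1.45 ± 0.10 (adjusted p = 1.31e-08) there and -0.34 ± 0.10 (adjusted p = 0.0103) in MV-4-11. The call in MV-4-11 was lost without its ABBV-075 replicate 2, at -0.26, or its DMSO replicate 2, at -0.29. Without SKM-1 DMSO replicate 1 the SKM-1 median of the mitochondria-specific proteins was 0.02, and that of the exit tunnel 0.07.

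Of the 16 small-subunit proteins with a bacterial counterpart, 7 were lower in SKM-1, 7 in MV-4-11, 12 in Kasumi-1 and 10 in NCI-H1299, and 2, 1, 2 and 1 were higher. The 16 had shares lower of 43.8%, 43.8%, 75% and 62.5%, beside 29.2%, 22.1%, 32.6% and 26.5% of all genes. Their medians were -0.31, -0.43, -1.0 and -0.57, and the SKM-1 median was 0.04 without DMSO replicate 1. MRPS12, at the decoding centre, had 67.2 and 68.2 FPKM with ABBV-075 and 158 and 147 FPKM with ABBV-744, against 214 and 184 FPKM with DMSO in NCI-H1299. It had 7.19 and 4.31 FPKM with ABBV-075 and 16.3 and 20 FPKM with ABBV-744, against 33.8 and 27.4 FPKM with DMSO in Kasumi-1. In both lines the 3 groups were separate. MV-4-11 had 50.9 and 48.5 FPKM with ABBV-075 and 62.1 and 65.8 FPKM with ABBV-744, against 57.5 and 79.5 FPKM with DMSO, with overlapping ABBV-744 and DMSO libraries and ABBV-075 libraries below both. The differences with ABBV-075 were -1.54 ± 0.25 (adjusted p = 0.000143) in NCI-H1299, -2.25 ± 0.25 (adjusted p = 2.07e-06) in Kasumi-1, -1.52 ± 0.25 (adjusted p = 8.95e-05) in SKM-1 and -0.44 ± 0.25 (adjusted p = 0.186) in MV-4-11, where the call was not made. Of the 10 small-subunit proteins found only in mitochondria, 7, 6, 7 and 6 (70%, 60%, 70% and 60%) were lower in SKM-1, MV-4-11, Kasumi-1 and NCI-H1299, 0, 0, 1 and 0 were higher, and the medians were -0.95, -0.46, -0.86 and -0.57. MRPS34, one of these, had 30.4 and 24.6 FPKM with ABBV-075, against 66.2 and 74.7 FPKM with DMSO in SKM-1. It had 25.8 and 26.8 FPKM with ABBV-075, against 61.9 and 57.8 FPKM with DMSO in NCI-H1299, with separate groups. Its differences were -1.33 ± 0.20 and -1.15 there, -1.45 in Kasumi-1 and -0.78 in MV-4-11, all called lower, the last lost without MV-4-11 DMSO replicate 2 at -0.67. MRPS23, another of them, was called lower in all lines, at -0.92, -0.56, -0.83 and -0.63 in SKM-1, MV-4-11, Kasumi-1 and NCI-H1299. In SKM-1 the counts lower, for large-subunit proteins with a bacterial counterpart, those specific to mitochondria and the same classes of the small subunit, were 13, 3, 4 and 7 without DMSO replicate 1 and 23, 6, 9 and 7 without DMSO replicate 2.

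**Figure D3:**
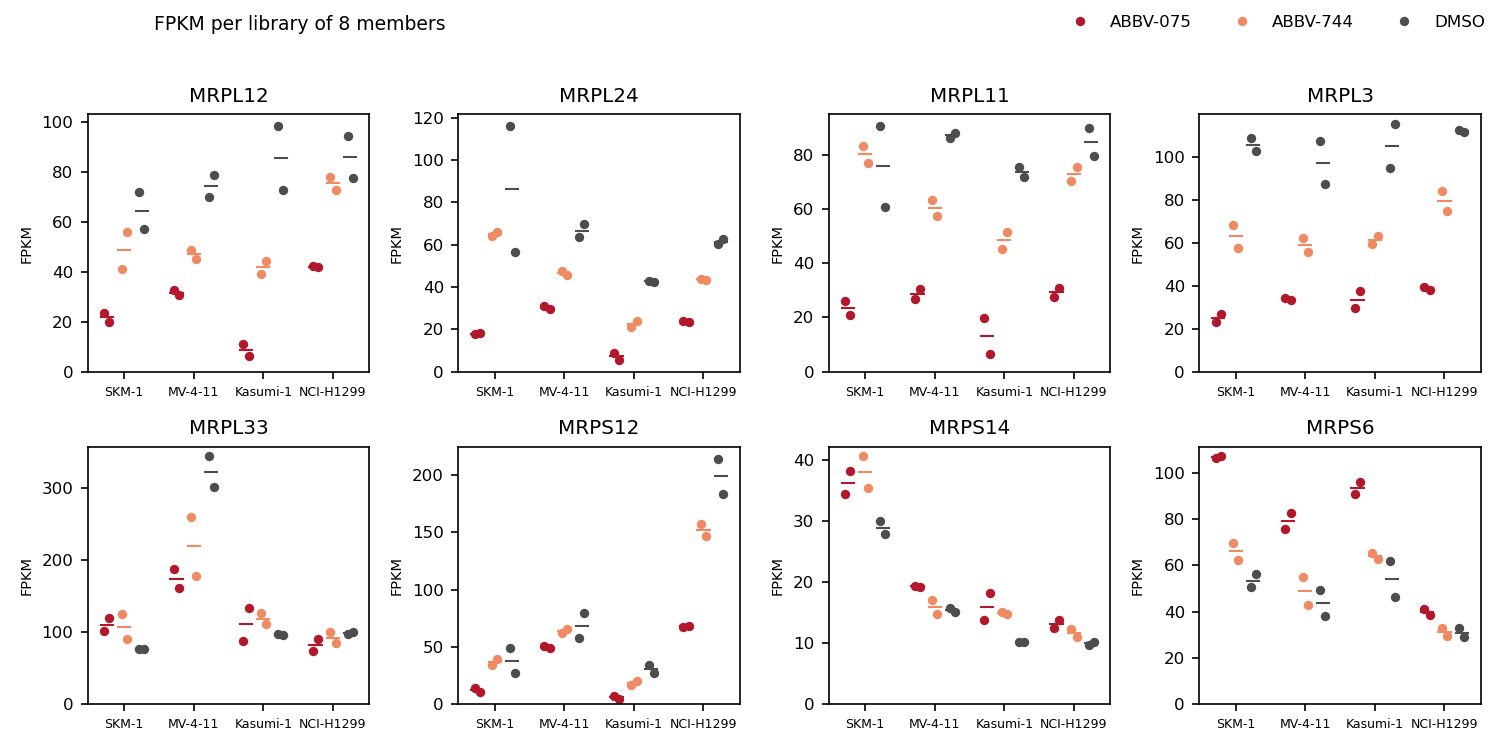
FPKM (vertical axis from 0) of 8 members in each library, by line, with ABBV-075 left of ABBV-744 and DMSO; points are libraries and bars the mean of 2. MRPL12, MRPL24, MRPL11 and MRPL3 are lowest with ABBV-075 in every line, MRPS6 is highest with ABBV-075 in every line, and MRPS12 has its highest DMSO libraries in NCI-H1299, at 214 and 184 FPKM.

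The 3 MRPS18 genes encode alternative versions of 1 bacterial protein, of which MRPS18C and MRPS18B belong to the small subunit and MRPS18A to the large one. MRPS18B had 54.4 and 49.7 FPKM with ABBV-075, against 112 and 109 FPKM with DMSO in NCI-H1299. It had 23.9 and 23.9 FPKM with ABBV-075, against 49.7 and 53.5 FPKM with DMSO in MV-4-11. In SKM-1 it had 33.9 and 30.6 FPKM with ABBV-075, against 58.5 and 163 FPKM with DMSO, and its DMSO libraries stood further apart than those of any other line. It was called lower in all lines, at -1.57 ± 0.31 (adjusted p = 0.000372) in SKM-1, -1.08 in MV-4-11, -1.48 in Kasumi-1 and -1.07 in NCI-H1299. The SKM-1 difference was -0.84 without DMSO replicate 2, still called. The MV-4-11 call was lost without DMSO replicate 2, at -1.02, and the NCI-H1299 call without ABBV-075 replicate 2, at -1.01. MRPS18C had 24.1 and 26.8 FPKM with ABBV-075, against 50.2 and 46.8 FPKM with DMSO in MV-4-11. It had 22.1 and 20.7 FPKM with ABBV-075, against 45.6 and 38 FPKM with DMSO in NCI-H1299, with differences of -0.91 ± 0.20 (adjusted p = 0.00179) and -0.93 ± 0.20 (adjusted p = 0.00134). In SKM-1 its difference was -0.50 ± 0.20 (adjusted p = 0.0407), and it was -0.31 without ABBV-075 replicate 1 and -0.28 without DMSO replicate 1, neither of them called. In Kasumi-1 it was -0.41 ± 0.20 (adjusted p = 0.0943). MRPS18A had 14.1 and 5.97 FPKM with ABBV-075, against 16 and 17.9 FPKM with DMSO in Kasumi-1, the only line in which it was called, at -0.81 ± 0.25 (adjusted p = 0.0123). The groups did not overlap, but that difference was -0.25 without ABBV-075 replicate 2, and the call was also lost without DMSO replicate 2.

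A few members went up with ABBV-075. MRPS6, a platform protein that contacts the MRPS18 position, had 107 and 107 FPKM with ABBV-075 and 69.9 and 62.5 FPKM with ABBV-744, against 50.8 and 56.1 FPKM with DMSO in SKM-1. In MV-4-11 it had 75.8 and 82.7 FPKM with ABBV-075 and 55 and 43 FPKM with ABBV-744, against 49.5 and 38 FPKM with DMSO. Kasumi-1 had 90.9 and 96.1 FPKM with ABBV-075 and 65.5 and 63 FPKM with ABBV-744, against 62.1 and 46.3 FPKM with DMSO, and NCI-H1299 had 41 and 38.5 FPKM with ABBV-075 and 32.9 and 29.6 FPKM with ABBV-744, against 32.9 and 28.8 FPKM with DMSO. The ABBV-075 libraries were above both other groups in every line. The differences with ABBV-075 were 0.99 ± 0.16 (adjusted p = 5.31e-05) in SKM-1, 0.85 ± 0.16 (adjusted p = 0.000404) in MV-4-11, 0.79 ± 0.16 (adjusted p = 0.000484) in Kasumi-1 and 0.36 ± 0.16 (adjusted p = 0.0733) in NCI-H1299, where it was not called. MRPS14, a protein of the small-subunit head, had 13.7 and 18.2 FPKM with ABBV-075 and 15.1 and 14.8 FPKM with ABBV-744, against 10.1 and 10.1 FPKM with DMSO in Kasumi-1. It had 12.4 and 13.7 FPKM with ABBV-075 and 12.3 and 11 FPKM with ABBV-744, against 9.72 and 10.2 FPKM with DMSO in NCI-H1299. The ABBV-075 libraries lay above the DMSO libraries in both. Its differences with ABBV-075 were 0.60 ± 0.13 (adjusted p = 0.000763) in Kasumi-1, 0.36 ± 0.13 (adjusted p = 0.0280) in NCI-H1299, 0.32 ± 0.13 (adjusted p = 0.0382) in SKM-1 and 0.31 ± 0.13 (adjusted p = 0.0590, not called) in MV-4-11. The NCI-H1299 call was lost without ABBV-075 replicate 2, at 0.29, DMSO replicate 1, at 0.33, or DMSO replicate 2, at 0.39, and the SKM-1 call under both other scalings and without ABBV-075 replicate 2, at 0.25, or DMSO replicate 2, at 0.26.

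Other rises rested on few libraries. MRPS36 had 47 and 55.6 FPKM with ABBV-075, against 36.3 and 10.5 FPKM with DMSO in SKM-1, and its difference of 1.33 ± 0.46 (adjusted p = 0.0205) was 0.48 without DMSO replicate 2 and 1.21 without ABBV-075 replicate 2, neither called. In MV-4-11 it had 67.8 and 53.2 FPKM with ABBV-075, against 27.6 and 24 FPKM with DMSO, with separate groups and a difference of 1.19 ± 0.46 (adjusted p = 0.0492), a call lost without any one of that line's own 6 libraries. MRPL53, a mitochondria-specific protein of the large subunit, had 47.4 and 37 FPKM with ABBV-075, against 29.4 and 11.8 FPKM with DMSO in SKM-1, and MRPL40, of the central protuberance, had 57.1 and 55.7 FPKM with ABBV-075, against 51.5 and 18.4 FPKM with DMSO. In both genes DMSO replicate 2 was the low one, and without it their differences of 1.12 ± 0.34 and 0.85 ± 0.28 were 0.50 and 0.13. MRPL33, a small protein with a bacterial counterpart, was called in opposite directions. It had 188 and 161 FPKM with ABBV-075, against 344 and 302 FPKM with DMSO in MV-4-11, lower at -0.89 ± 0.21 (adjusted p = 0.00320), and 101 and 120.0 FPKM with ABBV-075, against 76.4 and 76.3 FPKM with DMSO in SKM-1, higher at 0.52 ± 0.21 (adjusted p = 0.0431). The groups did not overlap in either line, though the SKM-1 call was lost in 14 of 30 alternative settings. MRPS33 was called higher in Kasumi-1 at 0.34 ± 0.14 (adjusted p = 0.0467), where it had 53.7 and 69 FPKM with ABBV-075, against 44.4 and 51.8 FPKM with DMSO, and the groups did not overlap. It was called lower in MV-4-11.

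ABBV-744 moved fewer members. 3 members were called lower in MV-4-11 and 0 higher, where 6.75% of all genes were called lower and 4.61% higher. In Kasumi-1, 16 were lower and 1 higher, beside 15% and 8.69% of all genes. In SKM-1, 7 were lower and 6 higher, beside 12.5% and 14.9%. In NCI-H1299 none was called in either direction by limma, beside 3.95% lower and 1.40% higher, and at an unadjusted p under 0.05 the counts were 6 lower and 0 higher. For MV-4-11 the unadjusted counts were 20 lower and 0 higher. The leukaemia mean had 23 lower and 2 higher, beside 17.3% and 18.2%. The medians of the members were 0.09 in SKM-1, -0.25 in MV-4-11, -0.31 in Kasumi-1 and -0.10 in NCI-H1299. Those of all genes were 0.05, 0.02, -0.04 and -0.03 in the same order of lines. Below 0 were 29, 64, 60 and 62 of the 76 members. Both ABBV-744 libraries lay below both DMSO libraries for 13, 47, 46 and 39 members, beside 22.3%, 27.2%, 38.6% and 37.1% of all genes. They lay above for 13, 1, 11 and 10 members, beside 28.3%, 30.8%, 29.6% and 28.5%. In this fit of all lines together, a larger share of members than of all genes was called lower in Kasumi-1 and the leukaemia mean. The other shares of members called were below those of all genes. With each line fitted alone this differed. The shares lower were then 23.7% in MV-4-11, 3.95% in Kasumi-1 and 21.1% in NCI-H1299, beside 9.40%, 5.54% and 12.5% of all genes.

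The ABBV-744 counts depended on single libraries and on the scaling. The counts in this paragraph have no share of all genes beside them, so they describe that dependence only. The Kasumi-1 count of 16 lower was 31 without either SKM-1 DMSO library, 8 without its own ABBV-744 replicate 1, 9 without ABBV-744 replicate 2 and 6 without DMSO replicate 1, and 25 with mitochondrially encoded genes left out of the scaling. Its split was 3 higher and 12 lower when scaled by median ratio, and 2 were higher without either SKM-1 DMSO library. The MV-4-11 count of 3 lower was 16 without either SKM-1 DMSO library, 7 without either Kasumi-1 ABBV-075 library, 5 without ABBV-744 replicate 1 and 1 without ABBV-744 replicate 2 or DMSO replicate 1. In SKM-1 the counts moved with its own DMSO and ABBV-744 libraries. The SKM-1 median of the members was 0.29 without DMSO replicate 1 and -0.17 without DMSO replicate 2. The median of all genes was 0.11 and 0.01 in these settings. With mitochondrially encoded genes left out of the scaling, the SKM-1 split was 3 higher and 13 lower with a median of -0.08, and the median of all genes shifted by -0.15. By median ratio it was 4 higher and 10 lower. The NCI-H1299 count of 0 lower was 5 without either SKM-1 DMSO library and 1 without either Kasumi-1 ABBV-075 library. The leukaemia count was 36 lower without SKM-1 DMSO replicate 2. Its 2 higher became 7 without SKM-1 DMSO replicate 1, 4 without either Kasumi-1 ABBV-075 library, and 1 without SKM-1 ABBV-744 replicate 1, MV-4-11 ABBV-744 replicate 1, MV-4-11 DMSO replicate 2 or either Kasumi-1 ABBV-744 library.

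MRPL3 was the member called lower with ABBV-744 in 3 lines. From the FPKM above, its differences were -0.74 ± 0.14 (adjusted p = 0.00149) in SKM-1, -0.71 ± 0.14 (adjusted p = 0.00383) in MV-4-11, -0.76 ± 0.14 (adjusted p = 0.00132) in Kasumi-1 and -0.49 ± 0.14 (adjusted p = 0.0635, not called) in NCI-H1299. The MV-4-11 call was lost without ABBV-744 replicate 2, at -0.63, or DMSO replicate 1, at -0.57. MRPL52, a mitochondria-specific protein of the large subunit, had 54.4 and 59.5 FPKM with ABBV-075 and 35.5 and 44.7 FPKM with ABBV-744, against 97.3 and 104 FPKM with DMSO in MV-4-11. There the ABBV-744 libraries were the lowest of the line, and the difference was -1.31 ± 0.19 (adjusted p = 0.000256) with ABBV-744 and -0.81 ± 0.19 with ABBV-075. In Kasumi-1, MRPL12 was lower at -1.0 ± 0.21 (adjusted p = 0.00313), MRPL23 at -0.93 ± 0.20 (adjusted p = 0.00319) and MRPL24 at -0.90 ± 0.23 (adjusted p = 0.0110). MRPL23 had 49.6 and 49.9 FPKM with ABBV-744, against 98.9 and 92.5 FPKM with DMSO there. MRPL12 lost its call with each line fitted alone and without Kasumi-1 DMSO replicate 1, at -0.79, and MRPL24 without ABBV-744 replicate 1 or either DMSO library, while MRPL23 kept its call whichever library was left out. MRPS14 was called higher with ABBV-744 in Kasumi-1, at 0.52 ± 0.13 (adjusted p = 0.00679), and in SKM-1, at 0.38 ± 0.13 (adjusted p = 0.0336). The SKM-1 call was lost without DMSO replicate 2, at 0.33, without ABBV-744 replicate 1, at 0.29, and under both other scalings, at 0.21 and 0.29. In SKM-1 the largest falls with ABBV-744 were those of MRPS18B, at -1.05 ± 0.31 (adjusted p = 0.0191), and MRPS5, at -0.89 ± 0.23 (adjusted p = 0.00943). MRPS18B had 42.1 and 51.6 FPKM with ABBV-744, against 58.5 and 163 FPKM with DMSO. MRPS5, near the entry of the message into the small subunit, had 33.9 and 33.3 FPKM with ABBV-744, against 41.8 and 94.2 FPKM with DMSO. In both the DMSO libraries lay above the ABBV-744 libraries and far from each other, and without DMSO replicate 2 the differences were -0.32 for MRPS18B, no longer called, and -0.31 for MRPS5. The largest rises were those of MRPS36, at 1.40 ± 0.46, MRPL53, at 0.99 ± 0.34, and MRPL40, at 0.93 ± 0.28, and without DMSO replicate 2 they were 0.55, 0.37 and 0.21, none of them called. In MV-4-11 the third member called lower was MRPL9, a large-subunit protein with a bacterial counterpart, at -0.36 ± 0.10 (adjusted p = 0.0203), where it had 51.1 and 46.2 FPKM with ABBV-744, against 62.5 and 63.2 FPKM with DMSO. That call was lost without ABBV-744 replicate 2, at -0.29, or either DMSO library, at -0.37 and -0.36. MRPS6 was not called with ABBV-744 in any line, with differences between 0.02 and 0.30.

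In the direct comparison at these doses, more members were called higher than lower with ABBV-744 in every line. In SKM-1, 42 members were higher and 1 lower, beside 22.7% and 21% of all genes. In MV-4-11, 10 were higher and 1 lower, beside 12.5% and 9.44%. Kasumi-1 had 39 higher and 1 lower, beside 21.2% and 16.5%. NCI-H1299 had 36 higher and 0 lower, beside 18.6% and 16.0%, and 1 member was lower at an unadjusted p under 0.05. The medians were 0.51 in SKM-1, 0.19 in MV-4-11, 0.53 in Kasumi-1 and 0.46 in NCI-H1299, and the 1 member lower with ABBV-744 was MRPS6 in each leukaemia line. In MV-4-11 the share of members higher was close to that of all genes, and its count was 22 without either SKM-1 DMSO library, 4 without ABBV-075 replicate 1, ABBV-075 replicate 2 or ABBV-744 replicate 1 and 6 without ABBV-744 replicate 2. The count lower was 0 in MV-4-11 without that last library and 2 without either SKM-1 DMSO or Kasumi-1 ABBV-075 library, and 0 in Kasumi-1 without its ABBV-075 replicate 2 or ABBV-744 replicate 2. The Kasumi-1 count was 23 without ABBV-075 replicate 2, 22 without ABBV-744 replicate 1 and 20 without ABBV-744 replicate 2. In NCI-H1299 it was 13 without ABBV-744 replicate 1, 15 without ABBV-075 replicate 2 and 18 without either of the other treated libraries. Both compounds were set against the same DMSO libraries above, so their own values stand side by side and are not correlated.

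**Figure D4:**
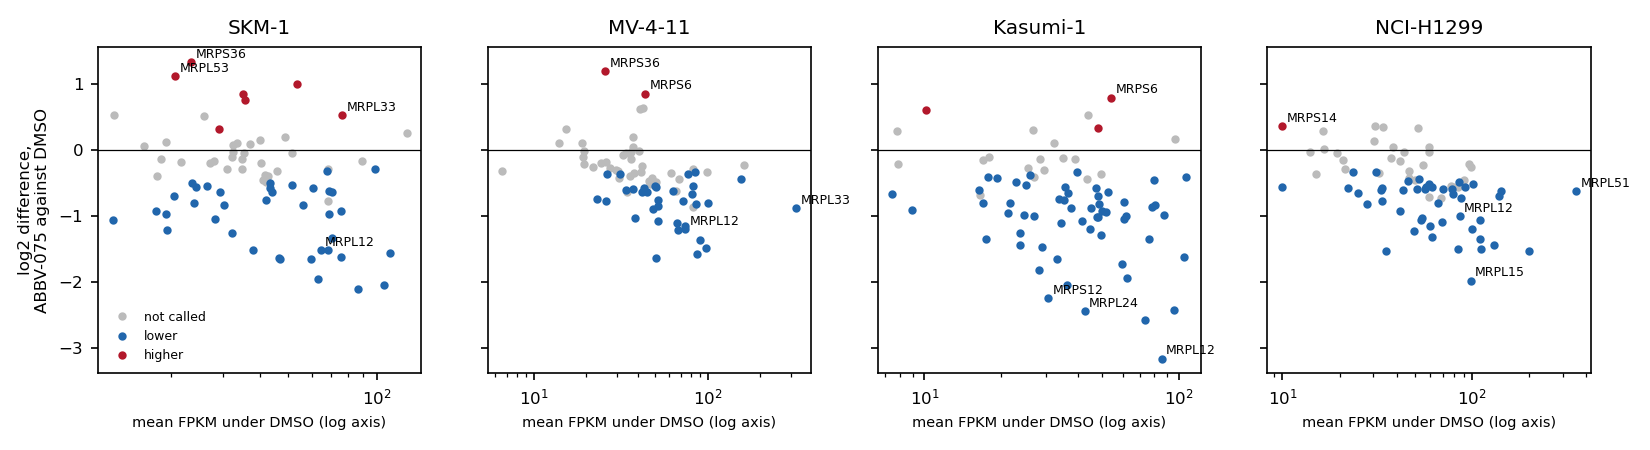
Mean FPKM with DMSO (horizontal log axis) against the log2 difference with ABBV-075 (vertical axis) for the 76 members in each line; blue points were called lower, red higher and grey not called. Members with more RNA under DMSO tend to lie lower, with a Spearman correlation of -0.58 in MV-4-11 and -0.29 in Kasumi-1, and both axes use the same DMSO libraries.

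Under DMSO the members summed to 3439 ± 579 FPKM in SKM-1, 4147 ± 7.64 in MV-4-11, 3178 ± 52.6 in Kasumi-1 and 4853 ± 181 in NCI-H1299, the highest (SD, n = 2 each). SKM-1 and Kasumi-1 did not differ beyond the spread of the SKM-1 libraries. The median member had 40.1 FPKM in SKM-1, 43.4 in MV-4-11, 36.5 in Kasumi-1 and 54.6 in NCI-H1299, and 39 members were highest in NCI-H1299, while 31 were lowest in Kasumi-1. Over the 8 DMSO libraries MRPL51 had the highest mean, 173 FPKM, ahead of MRPL33 with 149, MRPS21 with 122, MRPL3 with 105 and MRPL20 with 102. MRPL19 had the lowest, 9.53 FPKM, followed by MRPS31 with 15, MRPS25 with 15.9, MRPS14 with 16.1 and MRPL30 with 20. MRPL51 had 97.2 and 100.0 FPKM in SKM-1, 149 and 175 in MV-4-11, 76.5 and 83.6 in Kasumi-1 and 358 and 348 in NCI-H1299, far above the other lines in the last. MRPL19 had 11.8 and 13.4 FPKM in SKM-1, 7.21 and 6.01 in MV-4-11, 8.86 and 9 in Kasumi-1 and 10.1 and 9.87 in NCI-H1299, low in each. MRPL51 led in NCI-H1299 alone, while MRPS21 had the highest level in SKM-1 and in Kasumi-1 and MRPL33 in MV-4-11. The rank order of members was partly shared, with Spearman correlations between lines of 0.577 (Kasumi-1 and NCI-H1299) to 0.762 (SKM-1 and MV-4-11) over 76 members. These FPKM are per length, so levels of different genes can be set side by side.

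Against NCI-H1299, SKM-1 had 36 members lower and 9 higher under DMSO, beside 34.5% lower and 29.0% higher of all genes. MV-4-11 had 24 lower and 12 higher, beside 34% and 29.4%, and Kasumi-1 had 37 lower and 7 higher, beside 37.2% and 25.6%. The medians were -0.45, -0.25 and -0.41 in that order. MRPL41, a mitochondria-specific large-subunit protein, had 10.4 and 4.60 FPKM in Kasumi-1 DMSO libraries, against 106 and 87.3 FPKM in NCI-H1299 DMSO libraries, a difference of -3.61 ± 0.26 (adjusted p = 8.48e-09). It had 48 and 54.6 FPKM in SKM-1 and 37.9 and 43.4 FPKM in MV-4-11, so Kasumi-1 was the low line. MRPS12 was lower than in NCI-H1299 in SKM-1 at -2.42 ± 0.25, in MV-4-11 at -1.54 and in Kasumi-1 at -2.66, all called. MRPS28, a small-subunit protein, had 20.3 and 18.1 FPKM in SKM-1 and 18.6 and 16.8 FPKM in Kasumi-1, against 81.3 and 89.6 FPKM in NCI-H1299, with differences of -2.10 ± 0.13 and -2.21. In the other direction MRPS14 was higher in SKM-1 at 1.45 ± 0.13, with 30.1 and 27.8 FPKM against 9.72 and 10.2 FPKM in NCI-H1299. MRPL23 was higher in Kasumi-1 at 1.42 ± 0.20, and MRPL54 and MRPL33 were higher in MV-4-11 at 1.93 and 1.69. The split for MV-4-11 was 6 higher and 35 lower with mitochondrially encoded genes left out of the scaling, beside 24.5% and 39.3% of all genes. That for Kasumi-1 was 11 higher and 31 lower by median ratio, beside 29.9% and 32.7%. The SKM-1 count higher was 14 without SKM-1 DMSO replicate 2, the MV-4-11 count higher was 6 without MV-4-11 DMSO replicate 1 and 7 without NCI-H1299 DMSO replicate 2, and the Kasumi-1 count higher was 4 without either NCI-H1299 DMSO library.

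Among the leukaemia lines under DMSO, MV-4-11 had 29 members higher and 9 lower than Kasumi-1, beside 32.7% and 23% of all genes. MRPL41, MRPL52 and MRPL44 were higher in MV-4-11 by 2.38 ± 0.26, 2.18 and 1.87, and MRPS17, MRPL23 and MRPS16 were lower at -1.06, -0.91 and -0.85, all called. The count of 9 was 5 without MV-4-11 DMSO replicate 2 and 4 without Kasumi-1 DMSO replicate 1. SKM-1 had 10 higher and 20 lower than MV-4-11, beside 27.4% and 29.3%, and 18 higher and 13 lower than Kasumi-1, beside 31.8% and 23.9%. Both SKM-1 splits depended on which of its DMSO libraries was kept, and on the scaling. With mitochondrially encoded genes left out of the scaling, the split against MV-4-11 was 19 higher and 12 lower. Of all genes 40.5% were then higher and 20.1% lower, and their median shifted by 0.28. Against Kasumi-1 the split was 29 higher and 6 lower under that scaling. There 41.0% of all genes were higher and 17.0% lower, and their median shifted by 0.19. In each case the share of members was below that of all genes. MRPL33 was lower in SKM-1 than in MV-4-11 at -2.07 ± 0.21 (adjusted p = 6.92e-07), with 76.4 and 76.3 FPKM against 344 and 302 FPKM. MRPL54 was also lower in SKM-1 at -1.77, which was -1.14 without SKM-1 DMSO replicate 2.

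Members with a higher baseline level showed lower log2 differences with ABBV-075. The Spearman correlation of DMSO level and difference over the 76 members was -0.30 in SKM-1, -0.58 in MV-4-11, -0.29 in Kasumi-1 and -0.52 in NCI-H1299. These pairs share the DMSO libraries on both sides. With the baseline taken from the other 3 lines, which share none, the correlations were -0.22, -0.53, -0.38 and -0.43 in that order. They are given as descriptions over genes, which are not independent replicates. With the members split by baseline into a low, a middle and a high set of near-equal size, median differences were -0.39, -0.32 and -0.71 in SKM-1, -0.27, -0.48 and -0.77 in MV-4-11, -0.54, -0.76 and -0.93 in Kasumi-1 and -0.33, -0.56 and -0.65 in NCI-H1299. Even in the low set the median was under 0 in every line. Of members with a promoter entry, the 29 with an ETS core had median differences of -0.19, -0.36, -0.66 and -0.46 in the same order of lines, and the 38 without had -0.58, -0.58, -0.92 and -0.58. The difference between these 2 sets was not tested.

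Responses to ABBV-075 differed between lines for some members, by a test of the difference of the log2 differences. Between the leukaemia mean and NCI-H1299, 3 members differed, beside 18.5% of all genes, and for ABBV-744 none did by limma, beside 0.570%, with 1 higher and 2 lower at an unadjusted p under 0.05. The 3 were MRPL12 and MRPS25, with a lower response in the leukaemia mean, and MRPL18, with a lower response in NCI-H1299. The MRPL18 difference was 0.69 ± 0.11 (adjusted p = 0.000461). The count for ABBV-075 was 17 without SKM-1 DMSO replicate 1, 16 without replicate 2, 6 and 5 without Kasumi-1 ABBV-075 replicate 1 and 2, and 1 without NCI-H1299 ABBV-075 replicate 1, ABBV-075 replicate 2 or DMSO replicate 2. That for ABBV-744 was 4 and 1 without SKM-1 DMSO replicate 1 and 2. With all libraries in the fit, a smaller share of members than of all genes was called in this test. The counts with a library left out have no such share beside them and describe that dependence only.

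Between pairs of leukaemia lines the counts were 11 for SKM-1 minus MV-4-11 (4 higher, 7 lower), 15 for SKM-1 minus Kasumi-1 (13 higher, 2 lower) and 15 for MV-4-11 minus Kasumi-1 (13 higher, 2 lower). Of all genes 29.2%, 30.9% and 27.3% were called in these tests with all libraries. The counts below with a library left out have no share of all genes beside them, so they describe that dependence only. MRPL12 differed most in MV-4-11 minus Kasumi-1, at 1.96 ± 0.30 (adjusted p = 0.000282), and differed in SKM-1 minus Kasumi-1 at 1.64 ± 0.30 (adjusted p = 0.00122), with the deeper fall in Kasumi-1. MRPL34, a small large-subunit protein, had 8.26 and 6.16 FPKM with ABBV-075, against 33.5 and 22.9 FPKM with DMSO in Kasumi-1. It had 30.5 and 34.7 FPKM with ABBV-075, against 39.6 and 43.4 FPKM with DMSO in MV-4-11, where the groups were closer together. MRPS25 had 9.86 and 8.62 FPKM with ABBV-075, against 20.7 and 17.7 FPKM with DMSO in SKM-1. It had 13.8 and 16.4 FPKM with ABBV-075, against 14.4 and 13.6 FPKM with DMSO in MV-4-11. Of this pair it was called lower in SKM-1 and not called in MV-4-11, and the difference of the responses, -1.08 ± 0.19 (adjusted p = 0.000482), passed the test. SKM-1 minus MV-4-11 gave 30 members without SKM-1 DMSO replicate 1 and 6 and 7 without MV-4-11 ABBV-075 replicate 1 and 2. SKM-1 minus Kasumi-1 gave 44 without SKM-1 DMSO replicate 1, 8 without SKM-1 DMSO replicate 2 or ABBV-075 replicate 1, 26 and 7 without Kasumi-1 ABBV-075 replicate 1 and 2 and 6 without Kasumi-1 DMSO replicate 1. MV-4-11 minus Kasumi-1 gave 31 without either SKM-1 DMSO library or Kasumi-1 ABBV-075 replicate 1, 9 without MV-4-11 ABBV-075 replicate 2 and 8 without Kasumi-1 DMSO replicate 1.

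Other genes of mitochondrial gene expression were called with ABBV-075 as well, to be read against the 29.2%, 22.1%, 32.6% and 26.5% of all genes called lower in SKM-1, MV-4-11, Kasumi-1 and NCI-H1299. Of 8 mitoribosomal proteins listed under other symbols, 2 were lower in SKM-1, 2 in MV-4-11, 3 in Kasumi-1 and 4 in NCI-H1299, and 1, 0, 0 and 0 were higher. The shares lower, 25%, 25%, 37.5% and 50%, were near those of all genes in the leukaemia lines. GADD45GIP1, a large-subunit protein, was lower in each line, at -2.22 ± 0.24, -0.73, -1.92 and -0.92. DAP3, a GTP-binding protein of the small subunit, was called in no line. Of 27 assembly factors, 17, 7, 16 and 9 were lower, which is 63%, 25.9%, 59.3% and 33.3%, and 2, 2, 3 and 1 higher. In MV-4-11 that share was near the share of all genes. Among those lower were MRM1, which methylates the large ribosomal RNA, at -1.56 ± 0.11 over the leukaemia mean, C1QBP at -1.33 ± 0.08 and RBFA at -1.20 ± 0.27. Of 14 translation factors, 9, 6, 6 and 5 were lower, which is 64.3%, 42.9%, 42.9% and 35.7%, and 2, 2, 1 and 3 higher. MTFMT, which formylates the initiator methionine, was higher over the leukaemia mean at 1.01 ± 0.10, and TACO1 and MRRF, the recycling factor, were lower at -0.94 ± 0.08 and -0.80 ± 0.09. Of 20 general mitochondrial proteins, 12, 9, 12 and 12 were lower, which is 60% in each line but MV-4-11, with 45%, and 2, 2, 1 and 4 higher, led by TOMM40, HSPE1 and CLPP at -2.03, -1.98 and -1.74. Without SKM-1 DMSO replicate 1 the SKM-1 medians of these 4 lists were -0.002, -0.28, -0.34 and -0.48. Without replicate 2 they were -0.49, -0.79, -0.52 and -0.93.

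The partners of the mitochondrial ribosome did not all move with it. Of the 76 nuclear-encoded respiratory chain genes, 12 were lower and 19 higher in SKM-1, 8 and 3 in MV-4-11, 33 and 2 in Kasumi-1 and 24 and 2 in NCI-H1299, with medians of 0.21, -0.17, -0.43 and -0.41. The shares lower were 15.8%, 10.5%, 43.4% and 31.6%, above those of all genes in Kasumi-1 and NCI-H1299 and below them in SKM-1 and MV-4-11. Of 13 mitochondrially encoded mRNAs, 6 were lower in SKM-1 and none in the other lines, where 1 each was higher, with medians of -0.62, 0.16, 0.21 and 0.06. Their SKM-1 median was -1.22 without DMSO replicate 1 and -0.14 without replicate 2, the library with 22.3% mitochondrial FPKM. Of 78 cytosolic ribosomal proteins, 27 were higher and 1 lower in SKM-1, 1 and 12 in MV-4-11, 1 and 0 in Kasumi-1 and 2 and 6 in NCI-H1299, with medians of 0.45, -0.28, 0.01 and -0.19. The 27 higher in SKM-1 are 34.6%, near the 32% of all genes, and the 12 lower in MV-4-11 are 15.4%, below the 22.1% of all genes. In SKM-1 the cytosolic ribosomal median was 0.86 without DMSO replicate 1 and 0.06 without replicate 2. The median of all genes was 0.11 and 0.003 in these settings. How far this list stood above all genes in SKM-1 thus depended on the DMSO library kept. The chain median was 0.45 without the first and -0.18 without the second. In Kasumi-1 and NCI-H1299 the mitochondrial ribosomal genes and the chain genes both had medians under -0.4, while the cytosolic ribosomal genes stayed within 0.2 of 0. With ABBV-744, 38 cytosolic ribosomal genes were higher in SKM-1 and 9 in Kasumi-1, with medians of 0.63 and 0.31, and 2 were lower in MV-4-11 and none was called in NCI-H1299. The 38 are 48.7%, beside 14.9% of all genes, and the 9 are 11.5%, near the 8.69% of all genes. In SKM-1 this median with ABBV-744 was 0.97 without DMSO replicate 1 and 0.25 without DMSO replicate 2, where the median of all genes was 0.11 and 0.01.

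**Figure D5:**
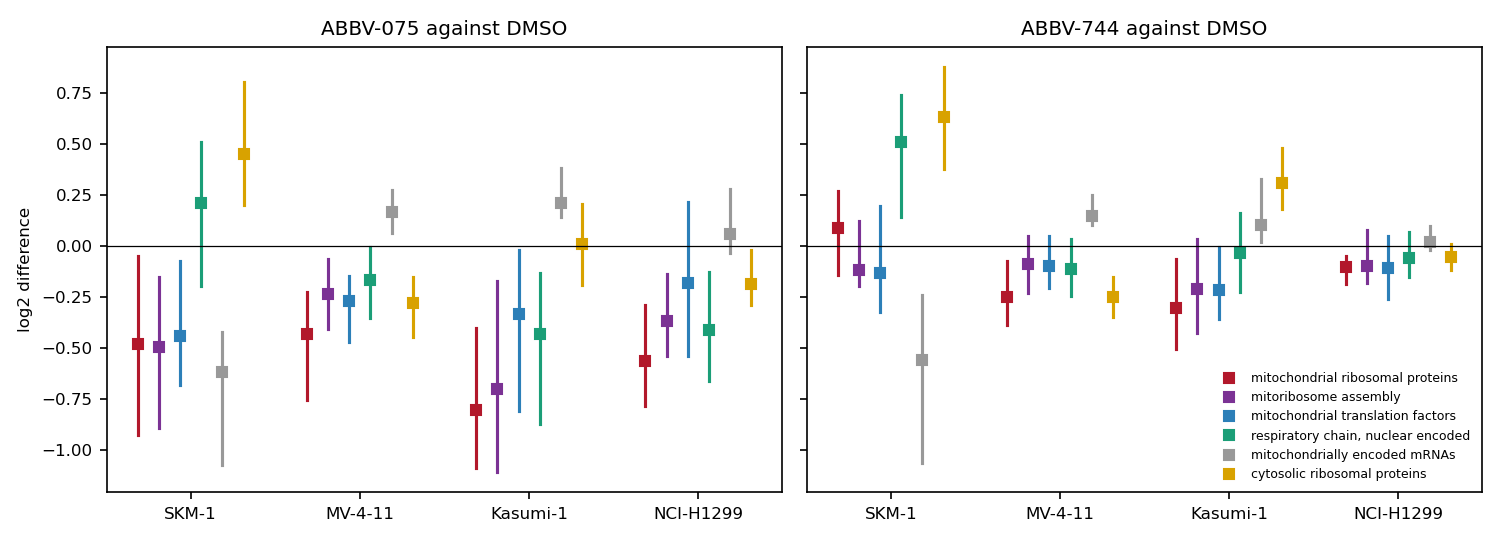
Median log2 difference from DMSO (squares, log2(FPKM + 1) scale) with the interquartile range over genes (lines) for the mitochondrial ribosomal proteins and 5 other gene lists in each line, ABBV-075 left and ABBV-744 right. With ABBV-075 the mitochondrial ribosomal median is -0.43 or lower in every line, while the cytosolic ribosomal median runs from -0.28 in MV-4-11 to 0.45 in SKM-1.

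Of the 13 genes tested for mitochondrial DNA transcription and its regulators (14 in NCI-H1299), 7, 4, 6 and 6 were lower with ABBV-075 and 0, 0, 0 and 1 higher. The shares lower were 53.8%, 30.8%, 46.2% and 42.9%, beside 29.2%, 22.1%, 32.6% and 26.5% of all genes. MYC was lower at -5.80 ± 0.17 (adjusted p = 9.99e-13) in SKM-1, -1.15 ± 0.17 (adjusted p = 7.13e-05) in MV-4-11 and -3.06 ± 0.17 (adjusted p = 1.26e-09) in Kasumi-1, and was -0.31 ± 0.17 (adjusted p = 0.154, not called) in NCI-H1299, where 45 members were called lower. PPRC1, a coactivator of nuclear genes for mitochondrial proteins, was lower in all lines, at -2.08, -0.92, -2.49 and -0.94. POLRMT, the mitochondrial RNA polymerase, was lower in SKM-1 at -1.0, Kasumi-1 at -1.64 and NCI-H1299 at -0.81, and was 0.08 and not called in MV-4-11. TFAM, which packages mitochondrial DNA, was lower in SKM-1 at -1.17 and not called elsewhere, with -0.35, -0.13 and -0.37; its SKM-1 difference was -0.68 without DMSO replicate 2. NRF1, a transcription factor of many such genes, was lower in NCI-H1299 at -0.49 ± 0.19 (adjusted p = 0.0465), and GABPA, the DNA-binding part of GABP, was called in no line. With ABBV-744, MYC was lower in SKM-1 at -0.85 and in Kasumi-1 at -1.02, and was -0.44 and 0.02 in MV-4-11 and NCI-H1299, neither called. The SKM-1 value of MYC was -0.45 without DMSO replicate 1 and -1.24 without DMSO replicate 2. Whether any of these genes acts on the members was not tested.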

How the data were processed

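Poly-A RNA sequencing of 24 libraries, per the labels' protocols, was deposited as 1 table of FPKM values, normalized by the authors for transcript length and library size. The submitters' processing notes name DESeq2. No aligner, quantifier or genome build is named in the labels or the table, so depth is unknown. The 2 libraries of a group took replicate numbers in accession order, and the labels do not say whether they were separate cultures, so p-values may measure only technical spread.

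Values were taken as log2(FPKM + 1), which understates changes of low genes. Genes needed 1 FPKM in 2 libraries of every line in a comparison. limma 3.58.1 (R 4.3.3, trend and robust) fitted 12 group means with 12 residual degrees of freedom, and adjusted p-values cover all genes tested. Per-library FPKM and statistics are given by a rule: MRPL12, the MRPS18 genes, the 3 largest called changes per direction, line and compound, members called in all lines, the 3 largest called differences of response or baseline, and the baseline extremes. A few further members and MYC, TFAM, POLRMT, NRF1, GABPA and PPRC1 are also given. The members and lists were chosen with earlier results of these data known. Alternatives were another pseudocount, filter, scaling, limma without trend, each line alone and each library left out. The fit was tested on simulated data. Python 3.11.15 with pandas 2.3.3 was used.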

Additional observations from a re-analysis of the deposited data

Results flagged for a closer look

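12 differences of ABBV-075 responses between lines are listed as values of log2 difference. They are the 3 largest in each comparison among the members that passed the limma test of the difference. The full counts are given above. With all libraries in the fit, a smaller share of members than of all genes passed in each comparison, and with a library left out this was not compared. For the leukaemia mean minus NCI-H1299 they were -0.957 for MRPL12, 0.695 for MRPL18 and -0.464 for MRPS25, with SE of 0.25, 0.11 and 0.15 and adjusted p of 0.0131, 0.000461 and 0.0435. The MRPL12 call was lost without NCI-H1299 ABBV-075 replicate 1, ABBV-075 replicate 2 or DMSO replicate 2, and the MRPS25 call in 16 of 29 settings. For SKM-1 minus MV-4-11 they were 1.41 for MRPL33, -1.09 for MRPS12 and -1.08 for MRPS25, with adjusted p of 0.00249, 0.0335 and 0.000482. The MRPS12 call was lost without SKM-1 ABBV-075 replicate 2, at -0.86, SKM-1 DMSO replicate 1, at -0.66, either MV-4-11 ABBV-075 library or MV-4-11 DMSO replicate 1.

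For SKM-1 minus Kasumi-1 the differences were 1.64 for MRPL12, 1.61 for MRPL54 and 1.53 for MRPS11, with adjusted p of 0.00122, 0.00657 and 0.00975. MRPL54 had 37.1 and 30.8 FPKM with ABBV-075, against 36.8 and 14.9 FPKM with DMSO in SKM-1. It had 19 and 12.4 FPKM with ABBV-075, against 32.9 and 35.6 FPKM with DMSO in Kasumi-1. MRPS11 had 20.4 and 15.9 FPKM with ABBV-075, against 16.7 and 8.75 FPKM with DMSO in SKM-1. It had 18.2 and 9.10 FPKM with ABBV-075, against 24 and 30 FPKM with DMSO in Kasumi-1, and its call was lost without Kasumi-1 ABBV-075 replicate 2, at 1.07. In both genes SKM-1 DMSO replicate 2 was the low library, and without it the MRPL54 difference was 0.99, still called. For MV-4-11 minus Kasumi-1 the differences were 1.96 for MRPL12, 1.82 for MRPS12 and 1.48 for MRPL34, with adjusted p of 0.000282, 0.00183 and 0.00119.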

How the results depend on the processing

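No paired analysis was possible because the replicate numbers were given in accession order and tie no library to another. The fit of all lines uses a shared estimate of spread for each gene. The members differed most between the SKM-1 DMSO libraries, with an SD of 0.602. Whether the shared spread gave too many calls in SKM-1 was not tested. Fitted line by line, each line has its own spread and fewer residual degrees of freedom. ABBV-075 counts were then 24 lower and 1 higher in SKM-1, against 38 and 7 with all lines together. They were 5 higher each in MV-4-11 and NCI-H1299, against 2 and 1. The 24 are 31.6%, beside 19.7% of all genes. Of all genes 20.5% were higher in SKM-1, 25.3% in MV-4-11 and 31.1% in NCI-H1299. With ABBV-744 the fit of all lines gave 7 lower and 6 higher in SKM-1 and 16 lower and 1 higher in Kasumi-1. It gave 3 lower in MV-4-11 and 0 in NCI-H1299. Line by line, ABBV-744 counts fell to 0 and 0 in SKM-1 and to 3 lower and 0 higher in Kasumi-1. They rose to 18 lower in MV-4-11 and to 16 lower and 1 higher in NCI-H1299. The shares lower in MV-4-11, Kasumi-1 and NCI-H1299 were 23.7%, 3.95% and 21.1%, beside 9.40%, 5.54% and 12.5% of all genes. In this fit the member share was above that of all genes in MV-4-11 and NCI-H1299 and below it in Kasumi-1. ABBV-744 against ABBV-075 gave 13 higher and 0 lower in SKM-1, 21 and 4 in MV-4-11, 24 and 0 in Kasumi-1 and 58 and 2 in NCI-H1299. In that comparison 10.4%, 16.4%, 12.1% and 32.9% of all genes were higher in the same order of lines. The count higher with ABBV-075 in MV-4-11 was 1 with a pseudocount of 0.1 or no filter. Without a filter, 3 members were higher with ABBV-744 in SKM-1 and 1 in the leukaemia mean.

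The other scalings shifted the median of all genes by -0.15 to 0.28 over the comparisons. With mitochondrially encoded genes out of the scaling, ABBV-075 gave 4 higher in MV-4-11 and in NCI-H1299 and 7 differing from NCI-H1299 in response. ABBV-744 gave 13 lower and 3 higher in SKM-1, where the median turned to -0.0841, and 25 lower in Kasumi-1. At baseline 6 were higher in MV-4-11 than in NCI-H1299, 19 higher and 12 lower in SKM-1 than in MV-4-11, and 29 and 6 than in Kasumi-1. By median ratio, ABBV-075 gave 3 higher in NCI-H1299, beside 24.1% of all genes, and 7 differing from it, beside 10.2% lower and 9.15% higher. ABBV-744 gave 9 lower in MV-4-11, which is 11.8% beside 7.48% of all genes. It gave 3 higher in Kasumi-1, beside 11.6%, and 1 lower in NCI-H1299, beside 3.77%. At baseline 11 were higher in Kasumi-1 than in NCI-H1299, beside 29.9%. Without limma's trend and robust options 6 differed from NCI-H1299, beside 8.61% lower and 11.1% higher of all genes. The mean of MV-4-11 and Kasumi-1 alone, chosen after seeing the data, gave 3 higher with ABBV-075, and 1 higher and a median of -0.2735 with ABBV-744. The baseline of other lines gave correlations of -0.2199, -0.5279, -0.3756 and -0.4282, and the YY1 share before the start was 8.43%. The cause of these shifts was not tested.

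Leaving out 1 library, the counts higher with ABBV-075 ran from 1 to 13 in SKM-1, 1 to 4 in MV-4-11 and 0 to 2 in NCI-H1299, and medians from -0.744 to -0.2009 in SKM-1 and -0.6654 to -0.4947 in the leukaemia mean. With ABBV-744 they ran from 2 to 9 lower, 0 to 28 higher and a median of -0.1661 to 0.2904 in SKM-1, 1 to 16 lower in MV-4-11, 6 to 31 lower and 1 to 2 higher in Kasumi-1, 0 to 5 lower in NCI-H1299, and 17 to 36 lower and 1 to 7 higher in the leukaemia mean. Against ABBV-075 they ran from 4 to 22 higher and 0 to 2 lower in MV-4-11, 20 to 47 higher and 0 to 1 lower in Kasumi-1 and 13 to 49 higher in NCI-H1299. Response differences ran from 1 to 17 (ABBV-744 0 to 4) against NCI-H1299, 6 to 30 for SKM-1 minus MV-4-11, 6 to 44 for SKM-1 minus Kasumi-1 and 8 to 31 for MV-4-11 minus Kasumi-1. Baseline counts ran from 7 to 14 higher for SKM-1, 6 to 13 for MV-4-11 and 4 to 9 for Kasumi-1 against NCI-H1299, 11 to 38 lower and 5 to 14 higher for SKM-1 against MV-4-11, 5 to 23 lower for SKM-1 against Kasumi-1 and 4 to 10 lower for MV-4-11 against Kasumi-1. MRPS24 in SKM-1 with ABBV-075 ran from -1.0682 to 0.4186, the last without DMSO replicate 1, and MRPS15 with ABBV-744 from -0.6132, without DMSO replicate 2, to 0.9765. Of the 10 with the largest mean fall among members called lower with ABBV-075 in all lines, MRPL23, MRPL11, MRPL24, MRPL12, MRPL3 and MRPL15 kept every call in all 120 combinations of line and setting.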
